A study of Mus musculus with 6 samples.

Results

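The interleukin-6 (IL-6) family and its receptors were followed as 9 genes among the 15063 listed in RNA-seq of cultured mouse bone marrow mesenchymal stem cells. They are the ligand genes Il6, Il11, Lif and Clcf1, the receptor genes Cntfr, Il6st, Lifr and Osmr, and the feedback inhibitor gene Socs3, each matched to the files by its symbol. Cntfr was selected on its RPKM values, because it was higher in every knockout library, so its values are described without a test. The other 8 were taken as its ligands, co-receptors and inhibitor. All 9 were listed.

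The cells came from 3-week-old mice, with 3 wild-type (WT) libraries and 3 from a conditional knockout (CKO) of Mapk7, the gene for the MAP kinase ERK5. All 6 cultures were grown in α-MEM with serum and received no agent. Cells were harvested at passage 5, except those of WT library 2, which were at passage 7. WT libraries 1 and 2 carry the same animal label. The Cre driver of the knockout is not given in the sources used here. Levels are given in RPKM, reads scaled to gene length and to the counted reads of the library, and the reads quoted beside them were recovered from those values.

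Cntfr stood at 0.164 ± 0.0966 RPKM in WT against 2.81 ± 0.532 RPKM in CKO (SD, n = 3 libraries each), while Lifr stood at 2.93 ± 1.07 RPKM in WT against 0.784 ± 0.458 RPKM in CKO. Lifr exceeded Cntfr in all 3 WT libraries, and Cntfr, chosen for its higher CKO levels, exceeded Lifr in all 3 CKO libraries. Il6st, the shared receptor, was at 187 to 217 RPKM in 5 libraries and at 39.3 RPKM in CKO library 2. None of the 8 members that were tested passed the test across all genes.

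IL-6 family cytokines signal through gp130, the receptor chain encoded by Il6st. IL-6 and IL-11 join gp130 to their own binding receptors, LIF uses gp130 with the LIF receptor, and oncostatin M can use gp130 with the receptor encoded by Osmr. Ciliary neurotrophic factor and CLCF1 bind the receptor encoded by Cntfr, which is tethered to the membrane without a signalling domain of its own and works with gp130 and the LIF receptor. The chains activate JAK kinases and the transcription factor STAT3, which induces Socs3, an inhibitor that binds gp130 and damps the signal. In bone, the family acts on osteoblast differentiation and on the support of osteoclasts by stromal cells.

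Il6 and Socs3 serve here as an inducible ligand and as the readout closest to STAT3, so the 250 bases before their annotated starts are shown, from RefSeq on GRCm38.p6, written 5′ to 3′ on the gene's strand. The first is chr5:30012864-30013113 (plus strand) and the second chr11:117969367-117969616 (minus strand). Capitals mark motif matches, a κB site and an AP-1 site in Il6 and a STAT site in Socs3.
Il6: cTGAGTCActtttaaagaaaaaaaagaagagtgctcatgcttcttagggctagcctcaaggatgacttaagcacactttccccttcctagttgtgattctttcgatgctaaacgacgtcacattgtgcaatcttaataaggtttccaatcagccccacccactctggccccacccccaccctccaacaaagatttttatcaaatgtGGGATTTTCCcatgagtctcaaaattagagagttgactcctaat
Socs3: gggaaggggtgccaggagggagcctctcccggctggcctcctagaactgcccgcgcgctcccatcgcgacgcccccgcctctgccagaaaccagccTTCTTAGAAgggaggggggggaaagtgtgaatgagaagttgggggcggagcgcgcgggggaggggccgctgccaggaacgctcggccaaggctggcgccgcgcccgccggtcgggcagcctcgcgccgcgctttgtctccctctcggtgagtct
The motifs were searched on both strands, with positions counted from the annotated start. The STAT motif TTCNNNGAA matched at −154 in Socs3 and in 7.02% of 32851 promoter windows of this length. The κB motif, GGGA and TTTCC around any base, matched at −44 in Il6 and in 0.356% of windows. The AP-1 motif TGANTCA matched at −249 in Il6, −228 in Lif and −98 in 1 of 2 Il11 windows, and in 6.75% of all windows. The cyclic AMP response motif TGACGTCA, held by 1.55% of windows, had no exact match in the members. Near matches were not searched, and the Il6 sequence above holds cgacgtca, which differs in its first base. None of the 4 motifs matched in the windows of Cntfr (6 starts), Il6st, Lifr or Osmr. Clcf1 has no entry in the table.

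Libraries held 17351907 to 20689481 counted reads. Mapk7 itself was at 7.12, 6.76 and 9.07 RPKM in WT against 5.59, 3.84 and 5.45 RPKM in CKO (log2 difference −0.54, SE 0.23). The groups did not overlap, transcript remained in every CKO library, and the gene did not pass limma (adjusted p = 0.505). Where the deletion lies relative to the counted exons is not known here. Of the 13 stromal markers, 12 passed the filter and Lepr stayed under 1 RPKM. The collagen genes Col1a1, Col1a2 and Col3a1 were at 342 RPKM or more in every library. Every CKO library lay below every WT library for Pdgfra (means 23.8 and 7.23 RPKM, with 1.01 RPKM in CKO library 2), Pdgfrb (70.7 and 37.2 RPKM) and Cxcl12 (91.5 and 35.6 RPKM), and above it for Cd44 (40.6 and 87.6 RPKM). These were 3 of 12 tested markers lower and 1 higher, against 9.18% and 7.51% of all tested genes. The groups overlapped for the collagen genes, Thy1, Eng, Nt5e, Vcam1 and Prrx1. None of the 12 passed limma, and their part in the receptor levels was not tested. All 5 endothelial markers and the 2 listed lymphocyte markers stayed under 1 RPKM. Of the 4 listed granulocyte markers, S100a8 alone passed the filter. It was at 0 to 2.06 RPKM in WT and 0.264 to 5.75 RPKM in CKO, highest in CKO library 3, and its groups overlapped. Of the 15 monocyte and macrophage markers, 14 passed the filter and Cx3cr1 did not. They had a summed level of 792 to 2150 RPKM in WT and 411 to 3360 RPKM in CKO, with the top of each range in library 3 and the lowest value in CKO library 2. Lyz2 made up most of these sums (2950 RPKM in CKO library 3), and the mean log2 level of the list was highest in WT library 3 (4.99, against 4.67 in CKO library 3). WT library 2 and CKO library 3 were the least alike pair (Pearson correlation 0.79 across genes), and the closest pair, WT library 1 and CKO library 1 (0.97), crossed the genotypes. Bulk RNA does not tell fewer cells of a type from less RNA per cell.

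Of the 8 members other than Cntfr, 0 passed limma at an adjusted p of 0.05 over 11085 genes, where 0.00902% of all tested genes did so (1 gene, Galnt16). At an unadjusted p under 0.05 there were 3 (Il11 and Lif higher, Lifr lower), against 9.74% of all tested genes (3.36% higher and 6.39% lower). With limma-voom on recovered reads the counts were again 0 and 3, where 995 of 11060 genes had such a p (3.08% higher and 5.91% lower). The groups did not overlap for 1 of the 8, Lifr, while 16.7% of all tested genes had groups that did not overlap. Of these 8 genes 4 lay above and 4 below 0, with a median log2 difference of 0.10, beside 0.034 over all tested genes. Without WT library 2 that median was −0.18, and without CKO library 3 it was −0.54. All 9 members passed the filter of 1 RPKM in at least 3 libraries. Cntfr passed it through its 3 CKO libraries alone, so it could enter the fit only by being high there. Il11 reached 1 RPKM in 3 CKO libraries and 1 WT library, and Lifr in 3 WT libraries and 1 CKO library. Their entry into the fit thus leaned on the group where they were high, which limits their unadjusted p and the Lifr separation.

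**Figure D1:**
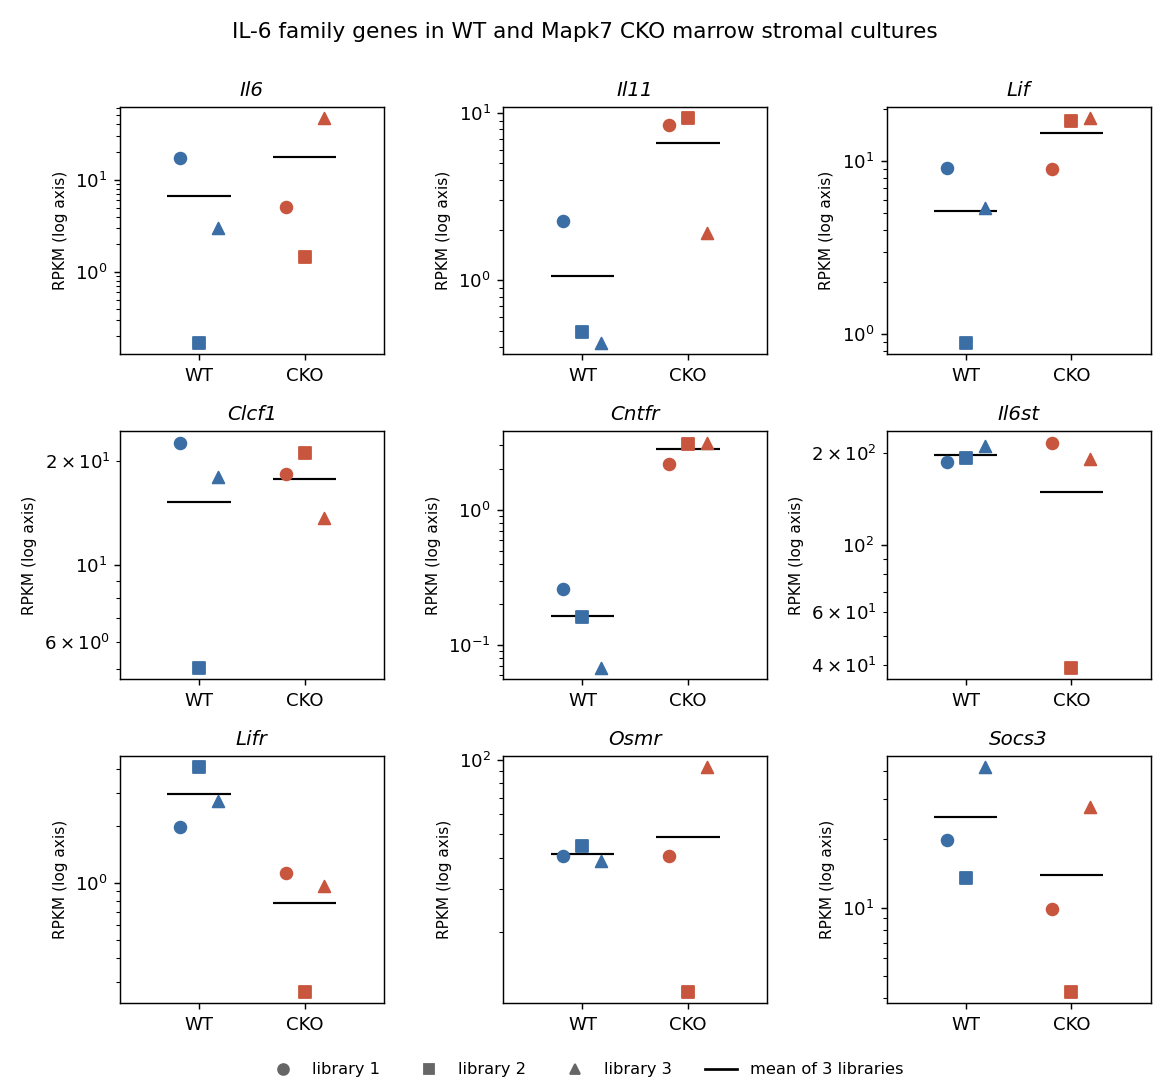
RPKM (log axis) of the 9 genes in 3 WT (blue) and 3 CKO (red) libraries, with a marker shape for each library number and a line at the mean. Cntfr lies above and Lifr below in every CKO library, while CKO library 2 is the lowest CKO point for Il6, Il6st, Osmr, Lifr and Socs3.

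Cntfr, the gene for the CNTF-binding receptor chain, had 0.261, 0.162 and 0.0682 RPKM in the WT libraries, in order of number, and 2.20, 3.08 and 3.15 RPKM in the CKO libraries. The lowest CKO value lay well above the highest WT value. Behind these were 23, 17 and 6 reads in WT and 211, 302 and 284 reads in CKO, over a recovered length of 5071 bases. The ratio of the group means was 17.1, a description of the pattern for which the gene was chosen. On the log2(RPKM + 1) scale, which understates low genes, the difference was 1.70. It was 3.51 with a pseudocount of 0.1 and 4.22 with voom. Even in CKO the transcript remained scarce beside Il6st, at a ratio of Il6st to Cntfr of 12.8 to 98.7, against 715 to 3110 in WT.

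Markers of cells that use this receptor elsewhere were examined beside Cntfr. The Schwann cell regulator Sox10 was at 1.73, 0.0953 and 2.91 RPKM in CKO and at most 0.552 RPKM in WT. The 4 neural and Schwann cell markers summed to 11.5 to 27.1 RPKM in WT and 7.40 to 31.8 RPKM in CKO, and these sums joined opposite differences. S100b, a calcium-binding protein gene of glia, was at 4.75, 25.5 and 5.31 RPKM in WT but 0.413, 0.0934 and 0.441 RPKM in CKO, while Tubb3, a neuronal tubulin gene, had means of 6.70 (WT) and 16.9 RPKM (CKO), and its groups overlapped. The neurofilament gene Nefl stayed near 0. Of the 5 listed skeletal muscle markers (summed level 0.170 to 28.8 RPKM in WT and 20.1 to 70.1 RPKM in CKO), the myogenic regulator gene Myod1 stayed at or near 0 and Myog was at 0 in 5 libraries. The actin gene Acta1 (0.154 to 63.9 RPKM) and the creatine kinase gene Ckm (0 to 6.76 RPKM) overlapped between the groups. Des, the desmin gene, was at 0.0158 to 1.18 RPKM in WT and 2.77 to 13.3 RPKM in CKO. The part of these transcripts in the Cntfr level was not tested.

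Lifr encodes the LIF receptor chain that pairs with gp130 for LIF, CNTF and CLCF1. It was at 1.98, 4.10 and 2.72 RPKM in WT against 1.13, 0.264 and 0.959 RPKM in CKO, from 369, 911 and 507 reads and 230, 55 and 183 reads. Every CKO library lay below every WT library. The log2 difference was −1.14 (SE 0.31, 95% interval −1.86 to −0.42), and it did not pass (limma adjusted p = 0.312). With 1 library left out it ranged from −1.32 to −0.91. Its size depended on the scale: it was −1.90 with a pseudocount of 0.1 (limma adjusted p = 0.368) and −2.10 with voom (limma-voom adjusted p = 0.404).

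Set against each other, Lifr and Cntfr changed order, while Il6st and Osmr lay above both in every library. The Cntfr side of this change belongs to the pattern for which the gene was chosen. The ratio of Lifr to Cntfr, both per kilobase, was 7.57, 25.3 and 39.9 in WT, by library number, against 0.514, 0.0859 and 0.304 in CKO. Relative to Il6st, Lifr was also lower in CKO: the ratio of Il6st to Lifr was 47.2 to 94.5 in WT and 149 to 200 in CKO, again without overlap. CKO library 2, where both transcripts were scarce, kept a ratio of 149. The ratio of Osmr to Lifr was 10.9 to 20.5 in WT and 36.0 to 97.3 in CKO. These ratios were chosen with the levels known and are given without a test.

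**Figure D2:**
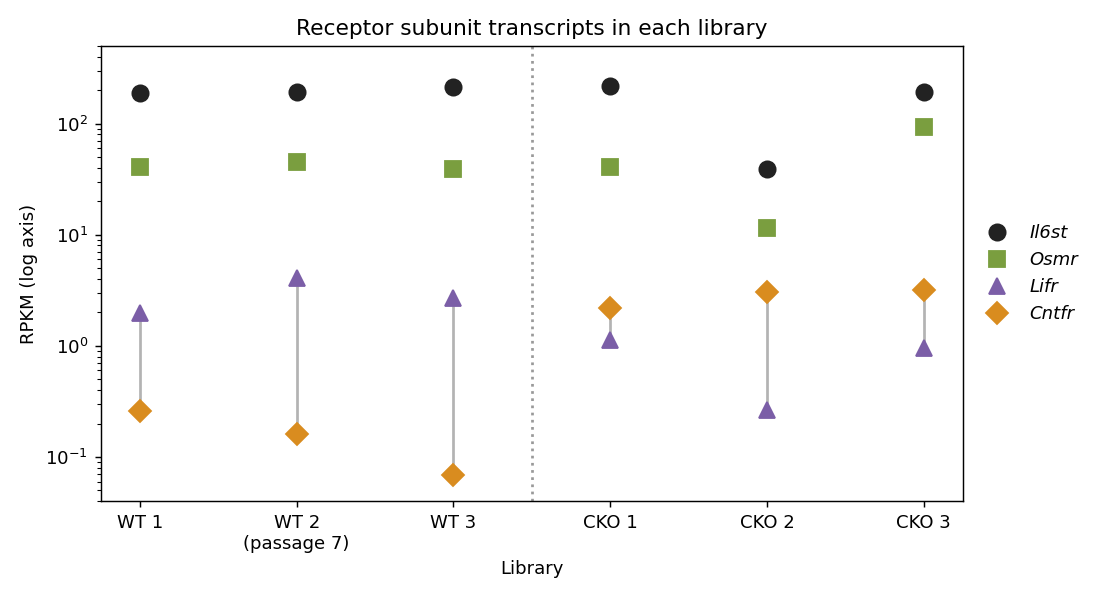
RPKM (log axis) of the 4 receptor genes in each library, with a grey line joining Lifr and Cntfr. Lifr is the higher of the pair in the 3 WT libraries and Cntfr in the 3 CKO libraries, and Il6st and Osmr both have their lowest value in CKO library 2.

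Il6st, the gp130 gene, was the most abundant member in every library. It was at 187, 193 and 212 RPKM in WT against 217, 39.3 and 192 RPKM in CKO. CKO libraries 1 and 3 lay near the WT range, and CKO library 2 alone stood apart, with 4343 reads against 18519 to 23446 in the others. The log2 difference was −0.73 (SE 0.63, 95% interval −2.21 to 0.74, limma adjusted p = 0.713), and without CKO library 2 it was 0.05.

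Osmr, the oncostatin M receptor gene, was even across WT at 40.6, 44.8 and 38.7 RPKM and uneven across CKO at 40.7, 11.4 and 93.3 RPKM. The CKO values lay below, within and above the WT range. Its log2 difference of −0.21 (SE 0.67, 95% interval −1.79 to 1.37) did not pass (limma adjusted p = 0.929). It turned to 0.57 when CKO library 2 was left out and was −0.89 with CKO library 3 removed.

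CKO library 2 differed from the other CKO libraries in a way that followed gene length. On the log2(RPKM + 1) scale, its level minus the mean of CKO libraries 1 and 3 had a median of 0.72 over 608 genes of up to 1000 bases and −0.58 over 820 genes between 8000 and 12000 bases. For Lifr, recovered at 10750 bases, the value was −0.69, beside a median of −0.61 over 668 genes within 20% of its length. The Il6st value of −2.35 lay far below the median of −0.35 over 1985 genes of like length, of which 0.655% were lower. Osmr, at −2.34, had 0.586% of 2219 such genes below it. Cntfr, of nearly the same length as Osmr, was at 0.16. After a trend on gene length was removed from each library, an alternative chosen after seeing the data, the log2 differences were −0.73 for Il6st, −0.21 for Osmr and −1.11 for Lifr.

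**Figure D3:**
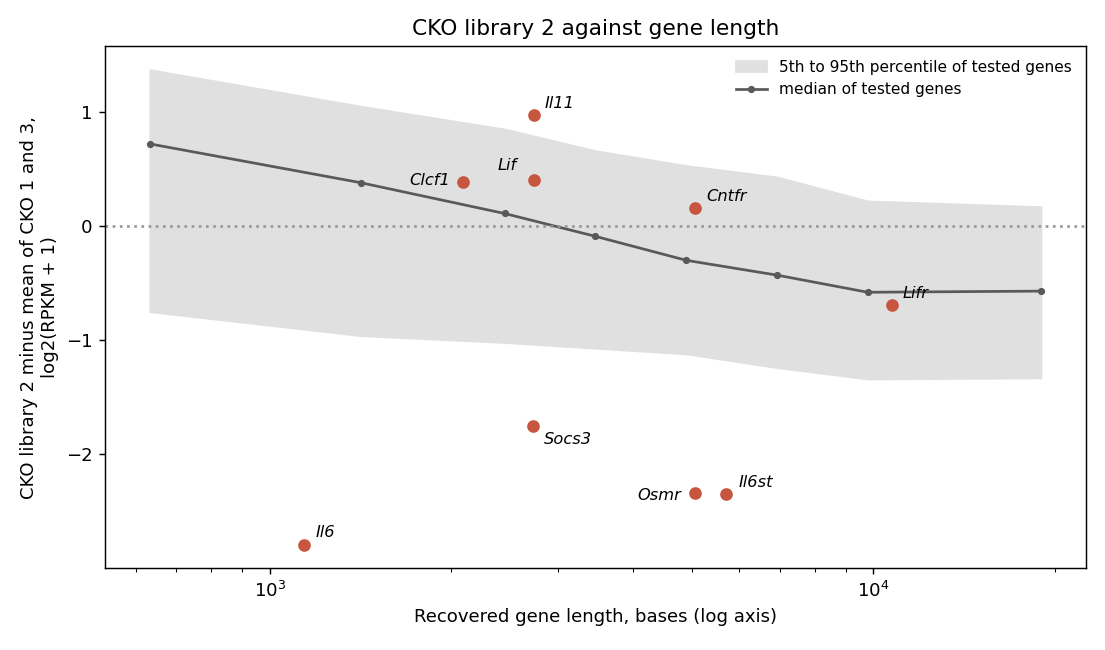
CKO library 2 minus the mean of CKO libraries 1 and 3 on the log2(RPKM + 1) scale against recovered gene length (log axis), with the median and the 5th to 95th percentile of tested genes in 8 length classes. Il6, Socs3, Osmr and Il6st lie below the shaded range, Lifr lies near the median, and Il11 lies above the range.

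Each of the 4 ligand genes among the members was higher on average in CKO, and none passed limma. The log2 differences were 1.79 for Il11, 1.60 for Lif, 1.02 for Il6 and 0.40 for Clcf1. Among the other measured ligand genes, given below, Cntf, Ctf1 and Ebi3 had lower means in CKO and Osm a higher mean. Il11, a cytokine gene active in bone formation and fibroblasts, was at 2.25, 0.494 and 0.421 RPKM in WT against 8.47, 9.33 and 1.93 RPKM in CKO. CKO libraries 1 and 2 lay above all WT libraries, and CKO library 3 lay below WT library 1. From 20 to 107 reads stood behind the WT values and 94 to 494 behind the CKO values. The log2 difference of 1.79 (SE 0.56, 95% interval 0.48 to 3.11) did not pass (limma adjusted p = 0.359). It was 2.61 with a pseudocount of 0.1 (limma adjusted p = 0.374) and 2.81 with voom (limma-voom adjusted p = 0.496).

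Lif, the leukaemia inhibitory factor gene, was at 9.16, 0.883 and 5.35 RPKM in WT against 9.01, 17.1 and 17.8 RPKM in CKO. WT library 1 and CKO library 1 were nearly equal, and the remaining CKO libraries lay above every WT library. The log2 difference was 1.60 (SE 0.61, 95% interval 0.16 to 3.05, limma adjusted p = 0.464). It was 0.90 without WT library 2, the passage 7 library with the lowest Lif.

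Clcf1, the gene for a ligand of the Cntfr-encoded receptor, was at 22.6, 5.04 and 18.0 RPKM in WT against 18.3, 21.1 and 13.7 RPKM in CKO. All CKO values lay inside the WT range. The log2 difference of 0.40 (SE 0.50, 95% interval −0.78 to 1.59, limma adjusted p = 0.802) turned to −0.20 without WT library 2.

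Il6 varied more than any other member, from 0.169 RPKM in WT library 2 to 46.8 RPKM in CKO library 3. It was at 17.1, 0.169 and 2.98 RPKM in WT against 5.04, 1.45 and 46.8 RPKM in CKO, with only 4 reads in WT library 2 and 947 in CKO library 3. The spread inside each genotype exceeded the difference between them. The log2 difference of 1.02 (SE 1.30, 95% interval −2.06 to 4.10, limma adjusted p = 0.806) was 0.07 when WT library 2 was left out and −0.19 when CKO library 3 was. In WT library 2 the transcripts of Il6, Lif and Clcf1 were each at their lowest of the 6 libraries. It is the only library of its passage, so passage and library cannot be told apart.

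Socs3, the STAT3-induced inhibitor gene, was at 19.8, 13.5 and 41.5 RPKM in WT against 9.84, 4.26 and 27.7 RPKM in CKO. CKO libraries 1 and 2 lay below every WT library, and CKO library 3 lay inside the WT range. The log2 difference of −0.99 (SE 0.66, 95% interval −2.55 to 0.57) did not pass (limma adjusted p = 0.652). Leaving out CKO library 3 gave −1.63, leaving out WT library 3 gave −0.56 and leaving out CKO library 2 gave −0.41. Socs3 was highest, within each genotype, in the library with the highest summed macrophage markers (WT library 3 at 2150 RPKM and CKO library 3 at 3360 RPKM), and lowest of all in CKO library 2, where those markers were lowest at 411 RPKM. The mean log2 level of the list had the same highest library within each genotype and the same lowest library (2.60). The part of macrophage transcripts in the Socs3 level was not tested.

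**Figure D4:**
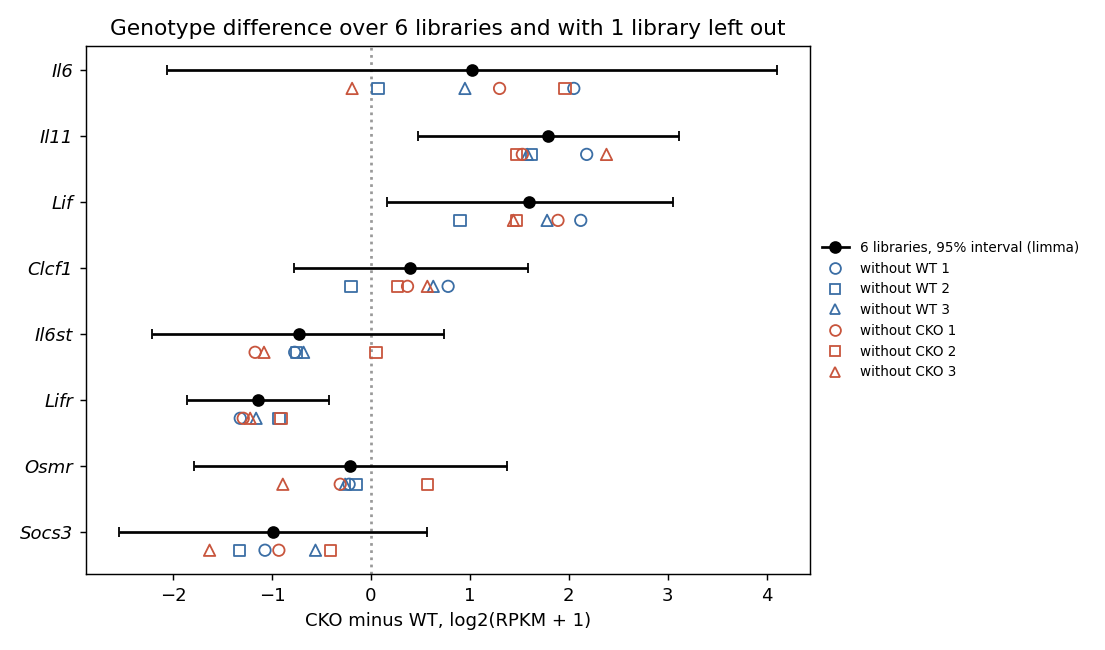
CKO minus WT on the log2(RPKM + 1) scale for the 8 genes other than Cntfr, with the limma 95% interval over 6 libraries (black) and the value with each library left out (open markers). Lifr, Socs3, Il11 and Lif keep their side of 0, while Il6, Clcf1, Il6st and Osmr cross it when 1 library is removed.

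By mean level, the WT order was Il6st (198 RPKM), Osmr (41.4 RPKM), Socs3 (24.9 RPKM), Clcf1 (15.2 RPKM), Il6 (6.74 RPKM), Lif (5.13 RPKM), Lifr (2.93 RPKM), Il11 (1.06 RPKM) and Cntfr (0.164 RPKM). Only Il6st from Osmr and Il11 from Cntfr were separated from their neighbour without overlap of ranges. In CKO the order was Il6st (149 RPKM), Osmr (48.5 RPKM), Il6, Clcf1 (both 17.7 RPKM), Lif (14.6 RPKM), Socs3 (13.9 RPKM), Il11 (6.58 RPKM), Cntfr and Lifr. There the only neighbours with separate ranges were Cntfr and Lifr.

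Another 8 listed genes of the family, of 12 sought, included a ligand gene for the Cntfr product and the receptor gene for IL-11. Il11ra1, the IL-11 receptor gene, was at 31.1, 98.9 and 39.6 RPKM in WT against 27.4, 27.4 and 22.5 RPKM in CKO, below WT in each library (−0.93 on the log2 scale, SE 0.42, adjusted p = 0.533 by limma). Il6ra, the IL-6 receptor gene, was low in both genotypes, at 1.15 ± 0.455 RPKM in WT against 0.932 ± 0.427 RPKM in CKO.

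Of the remaining ligands, Cntf was at 4.23 ± 2.07 RPKM in WT against 2.75 ± 0.708 RPKM in CKO, and Ctf1, the cardiotrophin 1 gene, at 7.18 ± 6.82 and 2.99 ± 1.13 RPKM. Ebi3, an IL-27 subunit gene, was at 1.49 ± 0.816 and 1.12 ± 1.17 RPKM. Osm, the oncostatin M gene, was below the filter, at 0.0253 to 0.756 RPKM in WT, 0.360 and 0.271 RPKM in CKO libraries 1 and 2, and 11.8 RPKM in CKO library 3, the library with the highest Osmr and Il6. Il27ra and Il31ra stayed under 1 RPKM. All 5 tested genes of this list lay below 0 (median log2 difference −0.40, beside 0.034 over all tested genes). Limma called 0 of them, with 0 at an unadjusted p under 0.05, against 0.00902% and 9.74% of all tested genes. For 1 of the 5, Il11ra1, every CKO library lay below every WT library, against 9.18% of all tested genes. Without WT library 1 the median was −1.26, and without WT library 3 it was −0.87. Ebi3 and Il6ra, at 1 RPKM or more in only 3 libraries, fell below the filter in both cases. These 2 medians therefore cover Cntf, Ctf1 and Il11ra1 alone.

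Of 18 tested JAK-STAT signalling genes, 15 lay below and 3 above 0. Their median log2 difference was −0.33, beside 0.034 over all tested genes. With 1 library left out that median ranged from −0.44 to −0.15, and the value nearest 0 was the one without CKO library 2. Stat5a, a STAT gene of cytokine and growth hormone signalling, was at 5.67, 6.73 and 6.27 RPKM in WT against 3.62, 2.12 and 2.97 RPKM in CKO (−0.90 on the log2 scale, SE 0.23, adjusted p = 0.289 by limma). Its close relative Stat5b was at 5.84 ± 2.29 RPKM in WT against 3.08 ± 1.03 RPKM in CKO. Pias3, an inhibitor of STAT3, was at 11.1 ± 1.88 and 7.48 ± 1.64 RPKM, and Gab1, an adaptor that couples gp130 to ERK signalling, at 3.01 ± 0.292 and 1.80 ± 0.794 RPKM. Ptpn2, which encodes a phosphatase acting on JAKs and STATs, had the opposite sign, with 17.3 ± 5.62 RPKM in WT against 26.8 ± 6.06 RPKM in CKO. In these 5 genes the groups did not overlap. Across the list, 5 genes had every CKO library below and 1 every CKO library above WT, against 9.18% and 7.51% of all tested genes. Stat3 itself was at 54.9, 57.2 and 48.8 RPKM in WT against 50.7, 28.7 and 44.5 RPKM in CKO, with overlap (limma adjusted p = 0.642). It was named after its values were seen. None of the 18 passed limma, and 1 (lower) had an unadjusted p under 0.05, against 9.74% of all tested genes (6.39% lower). CKO library 2 had the lowest value of Stat5a, Stat5b, Gab1 and Stat3.

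Genes that STAT3 or gp130 signalling can induce went both ways. Of 21 tested, 10 lay above and 11 below 0, with a median log2 difference of −0.12. Lbp, the lipopolysaccharide-binding protein gene of the acute phase response, was at 6.94, 47.4 and 20.2 RPKM in WT against 0.314, 0.184 and 3.70 RPKM in CKO (−3.37 on the log2 scale, SE 0.77, adjusted p = 0.277 by limma). Icam1, an adhesion molecule gene, was at 15.0 ± 13.8 and 2.96 ± 2.58 RPKM, and Cebpd, a transcription factor gene of the acute phase, at 66.4 ± 32.1 and 30.6 ± 13.2 RPKM. Socs1, a relative of Socs3, was at 4.30 ± 0.945 and 2.68 ± 0.320 RPKM. Vegfa, the angiogenic growth factor gene, was at 43.2, 15.4 and 31.0 RPKM in WT against 56.5, 61.2 and 156 RPKM in CKO (1.53 on the log2 scale, SE 0.50, adjusted p = 0.379 by limma). None passed limma. At an unadjusted p under 0.05 there were 4, Vegfa higher and Lbp, Cebpd and Icam1 lower, against 9.74% of all tested genes (3.36% higher and 6.39% lower). The groups did not overlap for 1 gene that was higher and 2 that were lower, against 7.51% and 9.18% of all tested genes.

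**Figure D5:**
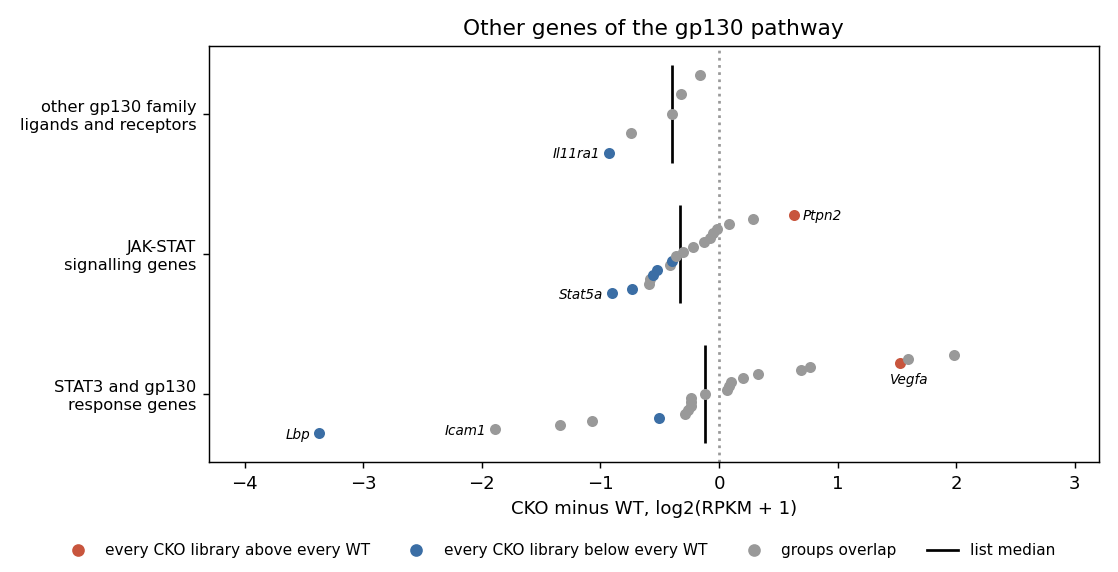
CKO minus WT on the log2(RPKM + 1) scale for the tested genes of 3 lists, 1 point a gene, coloured by whether every CKO library lies above (red) or below (blue) every WT library, with the list median as a line. All 5 family genes lie below 0, while the STAT3 response genes spread to both sides.

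The genes most like Cntfr were found by the Pearson correlation of log2(RPKM + 1) over the 6 libraries, which share the split by genotype. Those with the highest values were St6gal1 (0.990), Traf7 (0.987), Lyrm7, Map3k7cl and Galnt16 (each 0.98). St6gal1, a sialyltransferase gene, was at 1.14 ± 0.146 RPKM in WT against 2.61 ± 0.347 RPKM in CKO, and Traf7, a ubiquitin ligase gene, at 35.6 ± 0.869 and 47.8 ± 3.34 RPKM. Lyrm7, a gene for assembly of a respiratory complex, was at 0.802 ± 0.0302 and 1.16 ± 0.0597 RPKM. The ratio of CKO to WT means was thus 17.1 for Cntfr, 21.9 for Galnt16, 11.9 for Map3k7cl, 2.30 for St6gal1, 1.44 for Lyrm7 and 1.34 for Traf7. The most opposed genes were Ssh3 (−0.993), Zbtb7c (−0.992), Prelp (−0.987), Ankrd29 and Ptpra (each −0.98). Zbtb7c, a zinc finger gene, was at 2.12 ± 0.109 RPKM in WT against 0.303 ± 0.111 RPKM in CKO, and Ssh3, a cofilin phosphatase gene, at 13.6 ± 1.15 and 5.94 ± 0.611 RPKM.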

How the data were processed

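Poly(A) RNA libraries were made with a stranded kit per the labels' protocols. The authors deposited RPKM values, 1 per gene and library, under a header that names no unit. The unit was read from the values: 1 whole total per library and 1 whole length per gene gave whole reads for 14993 of 15063 genes (99.54%, within 0.01 read or a relative error of 1e-07), and for 0 of 500 genes with shuffled values. In simulated data 98.9% of 2468 genes were recovered exactly. The build is mm9 per the submitters' processing notes. The sources used here do not give the aligner, counter, annotation or use of strand, so overlapping genes may share reads. A gene of 1 kb with 3 reads has 0.145 to 0.173 RPKM, which covers counting error only.

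Groups and replicate numbers came from the titles. For WT library 3 the description and the header give different animal numbers. Since no label names a litter or a culture date, the p-values speak only for the spread among the libraries in hand, which may be technical. Genotype was fitted with limma 3.58.1 (R 4.3.3; trend and robust moderation) on log2(RPKM + 1) in 11085 genes with at least 1 RPKM in at least 3 libraries, with Benjamini-Hochberg adjustment over all of them. An exact permutation test of 3 against 3 libraries cannot go below p = 0.1.

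Members, lists and ratios were chosen with earlier results of these data known. Named genes were the members, every other measured family gene, up to 5 tested genes with the lowest p in each of the JAK-STAT and STAT3 response lists, and the 5 genes most and least correlated with Cntfr. Of the family and marker lists, 3 genes are not reported here and were left out of their lists. Cell type markers named singly were chosen after their values were seen. Alternatives were other pseudocounts, filters and scalings, no trend or robust moderation, voom on recovered reads, each library left out, WT libraries of 1 animal label merged and a replicate block. A length correction was added after seeing the data. Promoters of 8 of 9 members came from RefSeq (GRCm38.p6), another build than the files.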

Additional observations from a re-analysis of the deposited data

How the results depend on the processing

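None of the 8 members other than Cntfr passed limma under any of the 16 alternatives, where the smallest adjusted p was 0.168 (Lif, WT libraries of 1 animal label merged). Il11 and Lif stayed above 0 and Lifr and Socs3 below 0 wherever they were tested. With 1 library left out, the log2 difference ranged from −0.19 to 2.05 for Il6, −0.20 to 0.78 for Clcf1, −1.17 to 0.05 for Il6st and −0.89 to 0.57 for Osmr, so these reversed. Cntfr was below the filter without any 1 CKO library and with the filter at RPKM 5, as were Il11 and Lifr with that stricter filter.

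The 1 gene called over all genes (1 higher, 0 lower) became 0 with a pseudocount of 0.1, without a filter, with voom or with the replicate block. It became 4 with the filter at RPKM 5 (3 lower), 2 with median centring, quantile normalization or the length trend removed (all higher), and 50 with the WT libraries merged (8 higher, 42 lower). With 1 library left out it ranged from 0 to 24 (0 to 8 higher, 0 to 16 lower). The genes whose groups do not overlap numbered 1851, 3375 with the WT libraries merged and 2222 to 3719 with 1 library left out, where fewer libraries have to be apart. The median of the other gp130 family genes was −1.26 to −0.27 with 1 library left out, where genes could also fall below the filter. With the filter at RPKM 5 it was −0.93, the value of Il11ra1, the only gene of that list left. The cause of these shifts was not tested beyond the change in genes or libraries.

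For same-numbered WT and CKO libraries, the correlations of their deviations from the group means were 0.20, 0.01 and −0.02. Pairs of unlike number had −0.23 to 0.21. Whether libraries of the same number share a batch was not tested. The replicate block left Il6st at −0.73 and Socs3 at −0.99 (adjusted p = 0.405). Few reads limit the precision of Il6 in WT library 2 (4 reads) and of Cntfr in WT library 3 (6 reads). WT library 2 had the most counted reads of the libraries (20689481).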

Other observations

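Genes of the STAT3 response list differed in which library held their highest level. The genes given here were chosen after their values were seen. Saa3, an acute phase gene, was at 526 RPKM in CKO library 3 and at 1.37 to 6.95 RPKM in the other 5 libraries. Ccl2, a monocyte-attracting chemokine gene, was at 397 RPKM there and 5.22 to 105 RPKM elsewhere, and Bcl3, a nuclear factor κB cofactor gene, at 17.6 RPKM against 2.59 to 7.66 RPKM. Other genes of the list were highest in WT library 2. There Lbp was at 47.4 RPKM (3.70 RPKM in CKO library 3), Icam1 at 30.6 RPKM (5.62 RPKM) and Cebpd at 103 RPKM (45.3 RPKM). Lcn2 of the same list was high in both, at 46.3 RPKM in CKO library 3 and 44.9 RPKM in WT library 2. It was at 0.433 to 8.38 RPKM elsewhere.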
